A study of Mus musculus with 18 samples.

Results

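The 10 genes described here are markers of astrocytes and radial glia: Gfap, Vim, Slc1a2, Slc1a3, Glul, Aldoc, Aqp4, Slc4a4, Fabp7 and S100b. Every probe whose gene symbol in the deposited annotation equals one of these names was taken, which gave 20 of the 45281 probes and 10 of the 30869 gene symbols on the array. Slc1a2 and Slc4a4 had 4 probes each, Gfap, Vim, Aldoc and Aqp4 had 2 each, and the other genes had 1. Each gene is represented by the probe that was brightest over all arrays, and its remaining probes are given after the main results.

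RNA came from ESD3, a mouse embryonic stem (ES) cell line of strain 129s2/SvPas, and 18 Illumina MouseWG-6 v2 arrays were hybridised with it. Control cells expressed a virally delivered shRNA against luciferase and HPRT-knockdown cells one against HPRT, the purine salvage enzyme, and both had been selected with puromycin. Each was studied at the ES stage, when the cells were kept on mouse embryo fibroblast feeders with LIF, at the spherical neural mass (SNM) stage, an expanded neural intermediate, and at the final stage of dopaminergic neuronal differentiation, giving 6 conditions of 3 arrays. The 3 arrays of a condition measured 1 pool of RNA from replicate cultures, so each SD, standard error and p-value below covers the spread between arrays and not between cultures, and 1 knockdown population was set against 1 control population. Signal of Hprt1, the targeted gene, was 94.1% lower in knockdown than in control cells at the ES stage, 70.5% lower at the SNM stage and 95.4% lower at the neuronal stage.

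Radial glia are the stem cells of the developing brain, and they give rise first to neurons and then to astrocytes and oligodendrocytes. Both radial glia and astrocytes take up glutamate, carry intermediate filaments and exchange water and ions with their surroundings. Most of the 10 genes serve these functions. Aldoc, Fabp7 and S100b instead encode a glycolytic isozyme, a fatty acid binding protein and a calcium-binding protein. None of the 10 genes is strictly confined to astrocytes. Vim is also made by fibroblasts and many progenitors, and Aldoc and Glul are active in several tissues. S100b is also made by cells of the oligodendrocyte and Schwann cell lineages. Because whole cultures were measured, a larger share of such cells and more RNA per cell cannot be told apart.

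The promoters of all genes but Aqp4 were found in a RefSeq table for GRCm38.p6, with 11 start sites in all. Those shown belong to the 4 of these 9 genes that were called higher in knockdown cells at the neuronal stage, as described below. Aldoc had a further start site that is not shown. Each runs 5′ to 3′ from 250 bases before the annotated start site to 10 bases after it. Capitals mark matches on either strand to 4 motifs: STAT (TTC and GAA with 3 bases between), the NFI half-site (TTGGC), the RBPJ core (TGGGAA) and the TATA box (TATAAA). The last capital of S100b is the first base of an NFI half-site that continues beyond the stretch shown.
Gfap, chr11:102897191-102897450, minus strand: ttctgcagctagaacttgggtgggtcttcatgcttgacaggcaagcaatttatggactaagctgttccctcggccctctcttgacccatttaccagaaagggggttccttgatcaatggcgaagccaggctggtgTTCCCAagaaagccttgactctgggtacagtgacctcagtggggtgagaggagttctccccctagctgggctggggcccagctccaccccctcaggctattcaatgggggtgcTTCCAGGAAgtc
Aldoc, chr11:78323948-78324207, plus strand: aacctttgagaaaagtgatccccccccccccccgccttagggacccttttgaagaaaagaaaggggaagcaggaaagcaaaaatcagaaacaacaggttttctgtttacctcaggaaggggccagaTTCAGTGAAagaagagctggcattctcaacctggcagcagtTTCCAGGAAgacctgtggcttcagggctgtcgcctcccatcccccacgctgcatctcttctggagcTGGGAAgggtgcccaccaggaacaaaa
Slc1a2, chr2:102706188-102706447, plus strand: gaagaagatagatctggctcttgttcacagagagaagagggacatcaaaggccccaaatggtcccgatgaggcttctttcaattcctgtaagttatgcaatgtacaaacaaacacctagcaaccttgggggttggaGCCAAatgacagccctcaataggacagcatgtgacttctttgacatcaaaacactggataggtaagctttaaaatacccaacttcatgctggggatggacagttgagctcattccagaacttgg
S100b, chr10:76253586-76253845, plus strand: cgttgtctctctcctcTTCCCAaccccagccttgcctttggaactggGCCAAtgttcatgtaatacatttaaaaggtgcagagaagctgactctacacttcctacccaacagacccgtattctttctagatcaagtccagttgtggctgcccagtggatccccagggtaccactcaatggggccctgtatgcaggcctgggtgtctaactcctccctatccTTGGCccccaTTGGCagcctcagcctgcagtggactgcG

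STAT and NFI proteins are known regulators of the switch to astrocyte production, and RBPJ is the DNA-binding partner of Notch. The STAT letters were found in 3 of the 11 windows of 300 bases, those of Gfap, of Slc1a3 and of the Aldoc start site shown, against 8.3% of all 32851 promoters in the table. In the Gfap promoter the match began 2 bases before the start site. The Aldoc start site not shown had an NFI half-site and an RBPJ core but no STAT letters. The NFI half-site was present in 8 of 11 windows (46.7% of all promoters), the RBPJ core in 6 of 11 (25.6%) and the TATA box in 2 of 11, those of Vim and Slc1a3 (13.6%). Of the promoters shown, S100b held 4 NFI half-sites, 3 of them before the start site, Slc1a2 held 1, and Gfap held 0 in its window. These are matches of letters only, and no factor binding was measured.

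All of these genes but Glul rose between the ES and SNM stages in both cell types, and several then stood higher in knockdown than in control cells. Against control, knockdown cells at the SNM stage had 5 of the 10 genes called higher (Gfap, Vim, Glul, Aldoc and Aqp4) and 0 called lower. Neuronal-stage cells again had 5 genes higher (Gfap, Slc1a2, Aldoc, Aqp4 and S100b) and 0 lower. Among ES cells 0 were higher, and Fabp7 alone was lower. A gene was tested where 1 or both of the conditions compared had its probe above background on all 3 arrays, and called at an adjusted p-value under 0.05 with a change of at least 1.5-fold. By the same rule 11% of the 20765 probes tested in SNM cells were called higher and 8.9% lower. The shares were 13.9% and 13.5% of 20893 probes in neuronal-stage cells, and 0.516% and 1.17% of 18411 in ES cells. All 10 genes could be tested in the later stages and 6 in ES cells. Over the tested genes the median log2 difference between knockdown and control was 0.64 in SNM, 0.88 in neuronal-stage and -0.06 in ES cells, beside -0.04, 0.01 and 0.01 over all probes tested. Knockdown and control arrays did not overlap for 9 of the 10 genes in SNM cells (56.1% of all probes tested), for 7 in neuronal-stage cells (62.8%) and for 2, Fabp7 and Aldoc, in ES cells (31.6%).

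**Figure D1:**
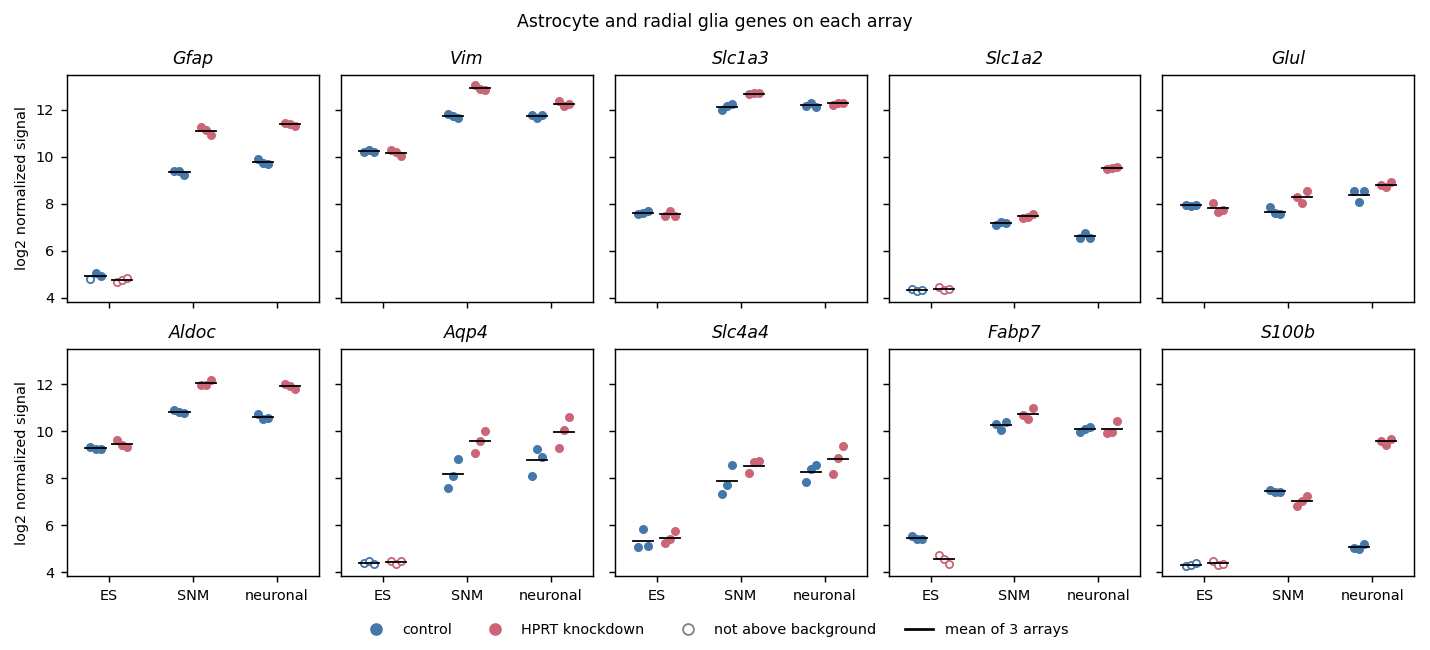
Log2 normalized signal of the brightest probe of each gene (vertical axis) at the 3 stages (horizontal axis), with 1 point per array, control cells in blue and knockdown cells in red. Open points were not above background, and black bars are means of 3 arrays. Gfap, Aldoc and Aqp4 lay higher on the knockdown arrays at both later stages, and S100b lay near 5 in control and above 9 in knockdown cells at the neuronal stage only.

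Among the intermediate filament genes, Gfap encodes the filament protein by which astrocytes are usually recognised. At the ES stage its log2 signal was 4.80, 5.06 and 4.93 on the control arrays, above background on 2 of them, and 4.66, 4.78 and 4.84 on the knockdown arrays, above background on 0. At the SNM stage control arrays read 9.41, 9.41 and 9.23 and knockdown arrays 11.25, 11.12 and 10.92, so every knockdown array was above every control array. The difference was 1.75 on the log2 scale, or 3.35-fold (standard error 0.09, adjusted p = 3.98e-10 from limma). The neuronal-stage readings were 9.89, 9.74 and 9.67 in control and 11.45, 11.39 and 11.29 in knockdown cells, a difference of 1.61 or 3.05-fold (standard error 0.09, adjusted p = 3.5e-10 from limma). Gfap thus stood in the same order at both later stages, and the change of the difference between them, -0.13 (standard error 0.13), did not pass the test.

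Vim encodes vimentin, the filament protein of radial glia, of immature astrocytes and of fibroblasts. It was well above background already at the ES stage, at 10.22, 10.28 and 10.20 in control and 10.30, 10.20 and 10.03 in knockdown cells. At the SNM stage it read 11.80, 11.72 and 11.64 in control and 13.05, 12.87 and 12.85 in knockdown cells, a difference of 1.21 or 2.31-fold (adjusted p = 4.24e-09 from limma). Control arrays of the neuronal stage read 11.77, 11.64 and 11.78, whereas knockdown arrays read 12.37, 12.17 and 12.24. The 2 groups of arrays did not overlap there and the adjusted p was 2.57e-05 from limma, but the 1.44-fold difference was below the 1.5-fold required. The knockdown difference of Vim was smaller at the neuronal than at the SNM stage, by 0.68 on the log2 scale (standard error 0.11, adjusted p = 0.00011 from limma).

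Slc1a3 and Slc1a2 encode GLAST and GLT-1, the glutamate transporters of radial glia and of mature astrocytes respectively. Slc1a3 read 7.55, 7.60 and 7.68 in control and 7.46, 7.70 and 7.50 in knockdown ES cells, and rose in both. At the SNM stage it read 11.997, 12.14 and 12.23 in control and 12.67, 12.70 and 12.69 in knockdown cells. This separation of 0.56 (1.48-fold, adjusted p = 9.25e-06 from limma) missed the fold threshold. In neuronal-stage cells, with 12.17, 12.29 and 12.10 in control and 12.22, 12.29 and 12.30 in knockdown cells, the arrays overlapped and the difference was 0.08 (standard error 0.07, adjusted p = 0.358 from limma).

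The brightest Slc1a2 probe was not above background on any ES array, and of the other 3 probes only the dimmest was, on 1 control array. At the SNM stage the brightest probe reached 7.11, 7.23 and 7.17 in control and 7.39, 7.46 and 7.57 in knockdown cells, a 1.24-fold difference (adjusted p = 0.00113 from limma) below the fold threshold. In neuronal-stage control cells it read 6.54, 6.76 and 6.56, and in knockdown cells 9.47, 9.54 and 9.57. There the groups lay far apart, with a log2 difference of 2.91 or 7.52-fold (standard error 0.07, adjusted p = 2.52e-15 from limma). Between SNM and neuronal stages Slc1a2 was 1.46-fold lower in control cells (log2 -0.55, below the fold threshold) and rose 4.16-fold in knockdown cells. The knockdown difference grew by 2.60 on the log2 scale (standard error 0.09, adjusted p = 1.61e-12 from limma), and only S100b, among the 10 genes, also had a difference called larger at the neuronal than at the SNM stage.

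Glul encodes glutamine synthetase, which converts the glutamate taken up by astrocytes to glutamine. It varied least of the 10 genes across conditions, with 1.14 log2 units between the highest and lowest condition means. SNM arrays read 7.85, 7.61 and 7.55 in control and 8.28, 8.02 and 8.53 in knockdown cells. The difference was 0.61 or 1.52-fold (standard error 0.14, adjusted p = 0.00177 from limma), just over the fold threshold. It fell short of that threshold when the second or the third control array was left out (0.58 and 0.54) or the third knockdown array (0.48), and under 3 other settings of background correction, scaling or offset (0.48 to 0.53). Neuronal-stage arrays read 8.56, 8.07 and 8.53 in control and 8.79, 8.71 and 8.93 in knockdown cells, a 1.34-fold difference (adjusted p = 0.016 from limma) below that threshold. Aldoc encodes aldolase C, the glycolytic isozyme of astrocytes and Purkinje cells. Its arrays read 9.32, 9.25 and 9.26 in control and 9.64, 9.40 and 9.32 in knockdown ES cells, 10.92, 10.80 and 10.76 against 11.95, 11.94 and 12.18 at the SNM stage, and 10.72, 10.51 and 10.57 against 12.003, 11.93 and 11.78 at the neuronal stage. Aldoc was thus higher on every knockdown array at both later stages, by 2.29-fold (adjusted p = 2.48e-08 from limma) and 2.46-fold (adjusted p = 4.07e-09 from limma).

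Aqp4, the water channel of astrocyte endfeet, and Slc4a4, a sodium bicarbonate cotransporter, differed from the other genes in their spread. Aqp4 was below background on all ES arrays. It read 7.60, 8.08 and 8.80 in control and 9.08, 9.60 and 10.003 in knockdown SNM cells, and 8.11, 9.24 and 8.91 in control and 9.29, 10.03 and 10.58 in knockdown cells at the neuronal stage. The knockdown arrays were the higher at both stages without overlap, by 2.63-fold (log2 1.40, standard error 0.34, adjusted p = 0.00288 from limma) and 2.32-fold (log2 1.21, standard error 0.34, adjusted p = 0.00645 from limma). Neither difference passed the methods' t-test after adjustment, which does not share the spread between probes (adjusted p = 0.0775 and 0.122). Turning to the cotransporter, Slc4a4 read 5.09, 5.83 and 5.13 in control and 5.24, 5.41 and 5.75 in knockdown ES cells, 7.33, 7.71 and 8.56 against 8.20, 8.67 and 8.73 in SNM cells, and 7.83, 8.37 and 8.56 against 8.17, 8.86 and 9.38 in neuronal-stage cells. Its groups overlapped at each stage, and the log2 differences at the SNM and neuronal stages, 0.67 and 0.55 (standard error 0.33 for both), did not pass the test (adjusted p = 0.102 and 0.172 from limma).

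The SD pooled over the 6 conditions was 0.47 for Aqp4 and 0.45 for Slc4a4, against a median of 0.13 over all probes detected, which placed them at percentiles 99.0 and 98.8. In each of the 4 SNM and neuronal conditions the array labelled 1 was the lowest for both genes. That array was also the lowest in all 4 for Slc1a2 and in 3 for Slc1a3, by less. Averaged over the 4 conditions, its deviation from the condition mean was -0.59 for Aqp4 and -0.48 for Slc4a4. For Slc1a2 and Slc1a3 it was -0.07 and -0.05, and for Fabp7 and S100b -0.08 and -0.04. For Gfap, Vim, Glul and Aldoc it went the other way, at 0.10, 0.09, 0.08 and 0.06. In these last genes array 1 was the lowest in 0 of the 4 conditions. Compared only between arrays of the same number, knockdown exceeded control Aqp4 signal by 1.48, 1.51 and 1.20 at the SNM stage and by 1.18, 0.79 and 1.67 at the neuronal stage, on the log2 scale. The same differences for Slc4a4 were 0.87, 0.96 and 0.17 in SNM and 0.34, 0.48 and 0.81 in neuronal-stage cells, all positive. With the array number as a block, Slc4a4 was called higher in knockdown SNM cells (adjusted p = 0.0147 from limma), which brought the genes called higher there to 6 of 10. Across the 18 arrays, which share 6 RNA pools, the signals of both genes had a Pearson r of 0.99, and Aqp4 was the symbol closest to Slc4a4 among 16254.

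**Figure D2:**
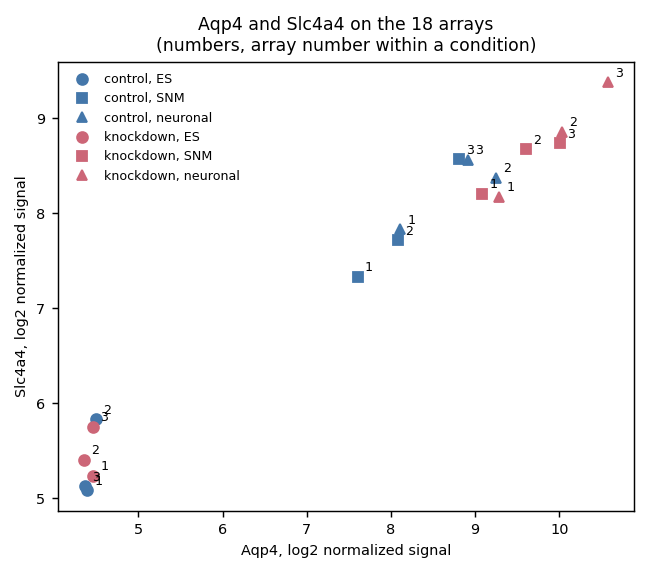
Log2 normalized signal of Slc4a4 (vertical axis) against Aqp4 (horizontal axis) on the 18 arrays, with circles for ES, squares for SNM and triangles for neuronal cells, control in blue and knockdown in red, and the array number beside each point. Within the 4 later conditions the arrays numbered 1 lie at the lower left, and ES arrays lie together below the rest.

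Fabp7 encodes the brain fatty acid binding protein, a marker of radial glia. It was the only gene of the 10 that was called between knockdown and control ES cells. Control ES arrays read 5.55, 5.42 and 5.40, all above background, and knockdown ES arrays 4.75, 4.58 and 4.33, none above it. The measured means differed by 0.90 on the log2 scale (standard error 0.14, adjusted p = 0.000897 from limma), and against the lowest signal detected on each knockdown array Fabp7 was at least 1.44-fold higher in control cells. Under 3 other settings of background correction, scaling or offset the measured means differed by 0.38 to 0.44, below the fold threshold. At the SNM stage it read 10.31, 10.07 and 10.39 in control and 10.67, 10.53 and 11.001 in knockdown cells, a 1.39-fold difference (adjusted p = 0.0108 from limma) below the fold threshold. Neuronal-stage arrays read 9.97, 10.10 and 10.18 in control and 9.93, 9.98 and 10.42 in knockdown cells, which overlapped (log2 difference 0.03, standard error 0.14). Summed fibroblast markers, which feeder cells express, were also lower in knockdown ES cells (1311 to 1424 against 1952 to 2017), and their part was not tested. Between ES and SNM cells the knockdown difference of Fabp7 changed by 1.38 (adjusted p = 5.87e-05 from limma), or by 0.72 to 0.90 under those 3 settings, and this value rests on knockdown ES arrays that were below background.

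S100b, which encodes a calcium-binding protein of astrocytes and also of oligodendrocyte lineage cells, had the widest difference. It was below background on all ES arrays and reached 7.48, 7.43 and 7.42 in control and 6.82, 7.04 and 7.23 in knockdown SNM cells. Every knockdown array was the lower there, by 1.33-fold on average (adjusted p = 0.00158 from limma), which made S100b the only gene of the 10 with a lower mean in knockdown cells at that stage. Neuronal-stage arrays read 5.05, 4.98 and 5.19 in control and 9.59, 9.43 and 9.67 in knockdown cells, a log2 difference of 4.49 or 22.4-fold (standard error 0.09, adjusted p = 8.92e-16 from limma). From the SNM to the neuronal stage S100b fell by 2.37 on the log2 scale in control cells (adjusted p = 3.67e-12 from limma) and rose by 2.53 in knockdown cells (adjusted p = 1.79e-12 from limma). The knockdown difference changed by 4.90 between these stages (standard error 0.13, adjusted p = 3.95e-14 from limma). Summed oligodendrocyte markers, and summed Schwann cell and neural crest markers, lay on the same side of control as S100b at each of the later stages. Their values are in the account of other cell types.

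**Figure D3:**
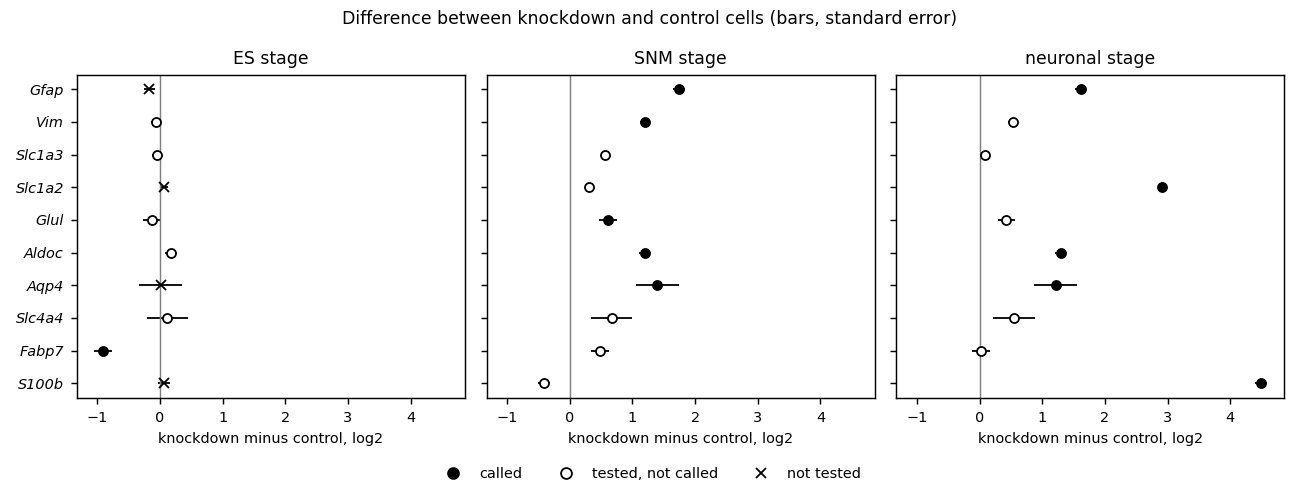
Difference in log2 signal between knockdown and control cells (horizontal axis) for each gene at the ES, SNM and neuronal stages, with standard errors as bars. Filled circles were called, open circles were tested and not called, and crosses were not tested. S100b lay at -0.41 at the SNM and at 4.49 at the neuronal stage, while Gfap lay at 1.75 and 1.61.

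Between the ES and SNM stages 9 genes rose and 0 fell in control cells, with Glul the exception (log2 -0.27, adjusted p = 0.0939 from limma). The same 9 rose in knockdown cells, where Glul differed by 0.46 (adjusted p = 0.00626 from limma), below the fold threshold. Of all probes tested, 23.7% were called higher and 25.4% lower in control cells, and 26.4% and 30.9% in knockdown cells. Fabp7 rose 27.8-fold, Slc1a3 22.8-fold and Gfap 21.5-fold in control cells, where Gfap had been above background on 2 of 3 ES arrays. In knockdown cells Slc1a3 rose 35-fold, and against ES arrays on which they were not above background Gfap was at least 71.6-fold higher and Fabp7 at least 55.7-fold higher. Among the genes whose brightest probe was below background on the ES arrays of both cell types, Aqp4 was at least 9.82-fold higher in control and at least 24.7-fold higher in knockdown SNM cells, S100b at least 5.97-fold and at least 4.29-fold, and Slc1a2 at least 4.92-fold and at least 5.81-fold.

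From the SNM to the neuronal stage, control cells had 2 of the 10 genes called. Glul rose 1.64-fold (adjusted p = 0.000328 from limma), S100b fell as described, and the other 8 were not called. Knockdown cells had Slc1a2 and S100b called higher, and Vim and Fabp7 called lower, by 1.59-fold (adjusted p = 2.04e-06 from limma) and 1.54-fold (adjusted p = 0.00142 from limma). The corresponding shares of all probes were 14.3% higher and 15.1% lower in control cells and 13.8% and 14.8% in knockdown cells. Both sets of comparisons use the same SNM arrays as those above. Set against ES cells, the neuronal stage had 9 genes higher in control and 10 in knockdown cells, and 0 lower in both (27.8% and 30% of all probes were called higher, 33.4% and 33.7% lower). Glul was the gene that differed, at 0.45 in control cells, below the fold threshold, and 1.00 in knockdown cells. The fall of Fabp7 between the SNM and neuronal stages was below the fold threshold when the third knockdown SNM array was left out, or the first or the second knockdown neuronal array (-0.49 to -0.55). It was also below that threshold under 75th percentile scaling without background correction (-0.49) and without all arrays numbered 1 (-0.57), and it did not pass the methods' t-test after adjustment (adjusted p = 0.0771). The rise of Glul in control cells was below the threshold under the same scaling (0.58).

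Whether the knockdown difference itself differed between stages was tested as an interaction. Of the genes above background on all ES arrays, Vim, Slc1a3, Glul and Aldoc had a larger difference at the SNM than at the ES stage. Gfap, Aqp4 and Fabp7 were also called larger, but their ES differences are only partly measured, since Aqp4 was below background on all ES arrays and Gfap and Fabp7 on all knockdown ES arrays. None of the 10 was called smaller, where 11.7% of all 22125 probes tested were called larger and 9.61% smaller. Against the SNM stage it was larger at the neuronal stage for Slc1a2 and S100b and smaller for Vim, where 13.7% of 22160 probes were called larger and 14.8% smaller. Vim was thus the only gene of the 10 whose knockdown difference was called both larger at one step and smaller at the next. Under 75th percentile scaling without background correction the changes of Slc1a3 and Glul from ES to SNM (0.38 and 0.56) and that of Vim from SNM to neuronal (-0.55) fell below the fold threshold. The 2 interactions share the SNM arrays.

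Ordered by condition means, the highest condition was the knockdown neuronal stage for Gfap, Slc1a2, Glul, Aqp4, Slc4a4 and S100b, and the knockdown SNM stage for Vim, Slc1a3, Aldoc and Fabp7. For Gfap all neighbours in the order knockdown neuronal, knockdown SNM, control neuronal, control SNM differed (adjusted p-values of at most 0.0161 from limma). For Aqp4 and Slc4a4 no neighbours among these 4 conditions did. In Slc1a3 the knockdown SNM mean stood apart from the knockdown neuronal mean by 0.41 (adjusted p = 0.000137 from limma), while knockdown neuronal, control neuronal and control SNM cells did not differ from their neighbours. Aldoc in knockdown SNM and knockdown neuronal cells differed by 0.12 (adjusted p = 0.26 from limma), and both stood above the control stages. S100b was highest in knockdown neuronal cells, followed by control SNM, knockdown SNM and control neuronal cells, and Slc1a2 by knockdown SNM, control SNM and control neuronal cells, with all these neighbours differing. For Vim the order was knockdown SNM, knockdown neuronal and then both control stages, which did not differ from each other (0.01, adjusted p = 0.928 from limma). Fabp7 in control SNM, knockdown neuronal and control neuronal cells did not differ between neighbours, nor did Glul between control neuronal and knockdown SNM cells or among control ES, knockdown ES and control SNM cells. In ES cells control and knockdown means did not differ for any gene but Fabp7 among the 6 tested.

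Further probes of the same genes were dimmer, and 8 of these 10 were above background on at least 1 array. Over the 18 arrays 4 of the 8 followed the brightest probe of their gene (Pearson r 0.99 for Gfap, 0.99 and 0.85 for Slc1a2 and 0.93 for Aldoc), and 4 did not (-0.28 for Slc1a2, 0.27 for Aqp4, and 0.03 and -0.47 for Slc4a4). The second Gfap probe, designed from another sequence record, read 7.10, 7.07 and 7.35 in control and 8.85, 8.98 and 8.98 in knockdown SNM cells, a difference of 1.76 (adjusted p = 3.33e-09 from limma), and differed by 1.51 in neuronal-stage cells (adjusted p = 8.65e-09 from limma). A second Slc1a2 probe differed by 0.63 at the SNM stage, or 1.55-fold, and so passed the fold threshold that the brightest probe missed (adjusted p = 5.18e-05 from limma). Later, in neuronal-stage cells, it differed by 2.30 (adjusted p = 7.22e-12 from limma). The third Slc1a2 probe was above background on 3 knockdown and 0 control arrays of the neuronal stage, with knockdown signal at least 2.08-fold higher. A second Aldoc probe had knockdown signal at least 1.60-fold higher at that stage, again with 0 control arrays above background, but at the SNM stage its 1.41-fold difference (adjusted p = 0.000466 from limma) was below the fold threshold that the brightest probe passed. The 4 probes that did not follow were above background on 1 to 5 of the 18 arrays and were not tested between knockdown and control cells at any stage, so the values of Aqp4 and Slc4a4 rest on 1 probe each. The last probes, 1 of Slc4a4 and 1 of Vim, were above background on 0 arrays.

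Other genes of the same cells and functions were followed as 6 lists chosen with earlier results of these data known. Of 36 tested astrocyte genes beyond the 10, 30 were higher and 1 lower in knockdown SNM cells, with a median log2 difference of 1.39. Over all probes tested there, 11% were higher and 8.9% lower, with a median of -0.04. In neuronal-stage cells 25 of 37 genes of this list were higher and 4 lower, with a median of 1.10. All probes tested at that stage had 13.9% higher and 13.5% lower, with a median of 0.01. The largest rises at the SNM stage were in Agt, which encodes angiotensinogen, from 5.59 to 9.38, and in the secreted protease gene Htra1, from 7.26 to 10.98 (log2 differences 3.79 and 3.72, adjusted p = 1.08e-15 and 8.84e-15 from limma). Gpr37l1, a receptor gene of astrocytes and oligodendrocyte precursors, was the only one lower at the SNM stage, by a log2 difference of -2.10, and had the largest rise at the neuronal stage, 5.2 (adjusted p = 1.27e-17 from limma). Apoe, the lipid carrier of astrocytes, differed by 3.00 at the neuronal stage. Dio2, which encodes the thyroid hormone deiodinase, and the gap junction gene Gjb6 were lower there, by log2 differences of -2.42 and -1.35 (adjusted p = 2.27e-13 and 4.71e-12 from limma).

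Radial glia genes beyond the 10 moved in both directions. At the SNM stage 4 of 16 tested were higher and 3 lower, beside 11% and 8.9% of all probes tested. Ptprz1 (1.77) and Dbi (1.14) led on one side and Pax6 (-0.97) and Sox3 (-0.89, above background on 1 of 3 knockdown arrays) on the other. Of 14 tested in neuronal-stage cells, 8 were higher and 4 lower. The chondroitin sulphate proteoglycan gene Ncan differed by 1.91 and Ptprz1 by 1.45, while Gli3, a transcription factor of the hedgehog pathway, and Nes, which encodes the progenitor filament nestin, differed by -2.11 and -1.97 (adjusted p = 2.19e-10 and 7.84e-10 from limma). Among gliogenic factors and their signalling genes, 7 of 19 were higher and 1 lower at the SNM stage, including the NFI family genes Nfix (1.87) and Nfib (1.29). In neuronal-stage cells 4 of 20 were higher and 2 lower, beside 13.9% and 13.5% of all probes tested. Nfib was then among the lower (-1.18, adjusted p = 0.000381 from limma). Cntfr, a receptor subunit for ciliary neurotrophic factor, differed by -0.86 at the SNM and by 1.66 at the neuronal stage.

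Of the genes that handle glutamate and glutamine, 3 of 12 were higher and 1 lower at the SNM stage (11% and 8.9% of all probes tested), and 2 of 12 higher and 1 lower at the neuronal stage (13.9% and 13.5%). Slc1a1, a glutamate transporter gene best known from neurons, differed by 3.44 at the neuronal stage (adjusted p = 2.83e-12 from limma). Glud1, which encodes glutamate dehydrogenase, differed by 1.08 and 1.16 at the later stages, and the cystine-glutamate exchanger gene Slc7a11 by -2.52 in neuronal-stage cells, where it was above background on 2 of 3 knockdown arrays. Of the genes that mark reactive astrocytes, 3 of 14 were higher and 2 lower at the SNM stage, and 6 of 15 higher and 4 lower at the neuronal stage, with Serpina3n (3.06) and H2-D1 (2.37) on one side and Ptx3 (-1.30) and Hspb1 (-0.98) on the other. The other intermediate filament genes were 6 of 10 higher and 2 lower at the SNM stage, led by the keratin gene Krt8 (2.89). At the neuronal stage 1 was higher and 5 were lower, led by the muscle filament gene Des (-5.90) and the neuronal filament gene Ina (-3.57). Of the filament list, Nes is also on the radial glia list, Des among the skeletal muscle markers, and Ina, Nefl and Nefm among the neuron markers. At the ES stage 0 genes of these 6 lists were higher and 6 lower, beside 0.516% and 1.17% of all probes tested. The lists had 21 astrocyte, 10 radial glia, 16 gliogenic, 9 glutamate, 10 reactive and 10 filament genes tested there. Those lower were Ednrb, Slc25a18, Tnc, Sox9, Cd44 and Lmna, with log2 differences from -0.89 for Sox9 to -0.62 for Lmna. Slc25a18 was above background on 1 and Tnc on 2 of the 3 knockdown ES arrays. In SNM and neuronal-stage cells the median log2 difference was 0.47 and 0.65 for the radial glia list, 0.38 and 0.10 for gliogenic factors, 0.13 and 0.29 for glutamate genes, 0.25 and 0.14 for reactive genes, and 0.68 and -0.78 for intermediate filaments.

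**Figure D4:**
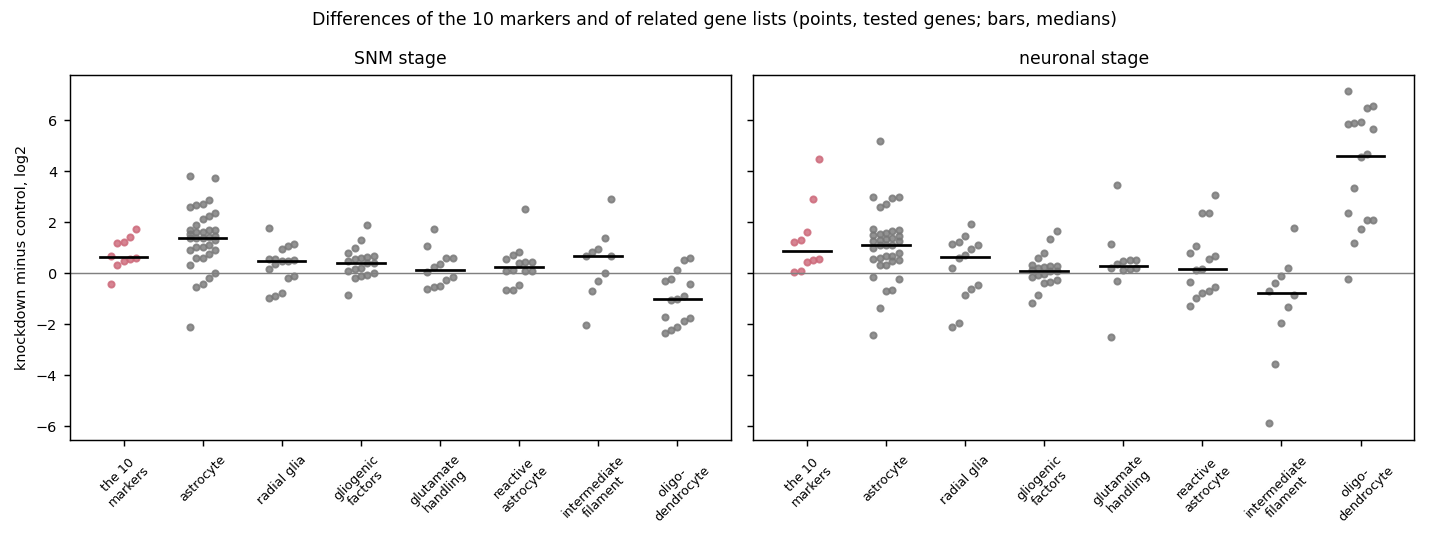
Log2 difference between knockdown and control cells (vertical axis) at the SNM and neuronal stages for the 10 markers (red) and for the tested genes of 6 related lists and of the oligodendrocyte list (grey), with 1 point per gene and medians as black bars. The median of the astrocyte list was 1.39 and 1.10, and that of the oligodendrocyte list -1.01 and 4.61.

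Markers of other cell types moved with the same comparisons, and their part in the results was not tested. Of all probes tested, 11% were called higher and 8.9% lower in SNM cells, and 13.9% and 13.5% in neuronal-stage cells. The shares in ES cells were 0.516% and 1.17%. Oligodendrocyte markers, which include genes of cells that also make S100b, had 1 of 15 genes higher and 9 lower in knockdown SNM cells. Of 16 tested in neuronal-stage cells 15 were higher and 0 lower, with a median log2 difference of 4.61. Their summed normalized signal, on a linear scale, was 12456 to 13105 in control and 100606 to 105814 in knockdown neuronal cells. At the SNM stage it was 19024 to 19673 in control and 13045 to 13868 in knockdown cells. It was thus lower in knockdown cells at the SNM stage and higher at the neuronal stage, as was S100b. All 16 were above background in knockdown neuronal cells, and Mog alone was not detected on any control neuronal array. Skeletal muscle markers, 8 of 10 of them higher and 0 lower in knockdown SNM cells (1469 to 1524 in control, 2945 to 3166 in knockdown), summed to 80515 to 81594 in control and 231 to 358 in knockdown neuronal cells, with 10 of 11 genes lower, and fibroblast and mesenchyme markers to 40554 to 44392 and 22174 to 25218, with 9 of 14 lower and 1 higher. Fibroblast markers at the SNM stage summed to 9383 to 10088 in control and 12412 to 13584 in knockdown cells, with 4 of 14 higher, and had 3 of 8 lower at the ES stage.

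Neuron markers had 2 of 11 genes higher and 3 lower at the SNM stage (11% and 8.9% of all probes tested). They had 0 higher and 7 lower at the neuronal stage (13.9% and 13.5% of all probes tested). There they summed to 14385 to 15456 in control and 8277 to 9386 in knockdown cells. Of the 13 neuron markers 11 were above background on all 3 control and 10 on all 3 knockdown arrays of that stage, while Snap25 and Nefl were not above background on any of them and Tubb3 on none of the knockdown ones. Ependymal and choroid plexus markers, cells that also make some astrocyte genes, had 6 of 9 higher and 0 lower at the SNM stage, and 3 of 7 higher and 2 lower at the neuronal stage. Schwann cell and neural crest markers had 0 of 7 higher and 5 lower, and then 3 higher and 2 lower. Their summed signal was 4834.5 to 5768 in control and 2443 to 2547 in knockdown SNM cells. At the neuronal stage it was 3021 to 3269 in control and 11675.5 to 12211 in knockdown cells. The direction was that of S100b at both stages. Sox10 stands on this list and on the oligodendrocyte list. Pluripotency markers had 5 of 9 lower at the SNM stage and 8 of 9 lower at the neuronal stage, with 0 higher at both. Of the 11 microglia markers 2 were tested at each stage and 0 called, and Itgam, Cx3cr1, Trem2, Tyrobp, C1qa and C1qb were not above background on any array. The labels call the last stage neuronal, and beside neuron markers both cell types then had genes of other cell types above background on all 3 arrays: 34 of 39 astrocyte genes in control and 37 in knockdown cells, 12 and 16 of 16 oligodendrocyte markers, 14 and 14 of 14 fibroblast markers, and 11 and 5 of 11 skeletal muscle markers. Many were so already in control and knockdown ES cells: 20 and 19 astrocyte genes, 7 and 8 oligodendrocyte, 8 and 6 fibroblast, and 6 and 6 skeletal muscle markers.

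Patterns over the 18 arrays were closest, by Pearson r among 16254 symbols, between Gfap and Bmp1 (0.998), Slc1a3 and Ctnnd2 (0.998), Slc1a2 and Scrg1 (0.997), Vim and mKIAA0282 (0.997), Fabp7 and Igfbp5 (0.996), Aldoc and B230312L03Rik (0.994), Aqp4 and B430201A12Rik (0.99), and Glul and Bet1l (0.941). S100b was closest to Bcas1 (0.99), Gatm (0.989) and Gpr17 (0.989), of which Gpr17, a receptor gene of oligodendrocyte precursors, stands on the oligodendrocyte list. Among the 10 genes themselves Slc1a2 was the one closest to S100b (0.946), and Gfap was closest to Aqp4 (0.98) and to Slc1a3 (0.975). These values describe 6 RNA pools, measured 3 times each.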

How the data were processed

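The values the authors deposited are the mean bead intensity of a probe on an array, neither background-subtracted nor normalized, and a detection p-value beside it. Deposited annotation supplied the gene symbols. The 72 per-sample columns of a second table, which no label pairs with samples, were not used. The scanner software version is not given in the sources used here.

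Signals were background-corrected from the detection p-values, quantile-normalized with an offset of 16 and log2-transformed with neqc (limma 3.58.1, R 4.3.3), and 1 limma model of the 6 conditions was fitted to all 18 arrays. Summed signals of a list are the normalized signals of its genes on a linear scale, less the offset, added up on each array. Bright genes therefore weigh most in them. Arrays detected 18827 to 22202 probes each at a detection p-value under 0.05. Tests were two-sided, with Benjamini-Hochberg adjustment over all probes tested. A gene below background on all arrays of a condition is given a lower bound, in which the lowest signal among detected probes (or the gene's own, if higher) stands for it on each array. With 3 arrays against 3, an exact permutation test cannot go below p = 0.1. The model fit and the rule for calling were tried on simulated log2 signals with noise independent between arrays. That trial did not cover the normalization, the lower bounds or deviations shared by equally numbered arrays. Members, gene lists and the rule for naming genes (every marker, and up to 2 largest rises and falls per list and stage) were chosen with earlier results of these data known.

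Array numbers come from the sample titles. Deviations from condition means of equally numbered arrays correlated at 0.49, 0.11 and 0.49 between knockdown and control SNM cells and at 0.52, 0.14 and 0.51 between knockdown SNM and neuronal cells, so the number was also fitted as a block. In the other 5 pairs of conditions compared the lowest of the 3 values was under 0.1: they were -0.09, 0.03 and 0.10 between knockdown and control ES cells, 0.61, 0.09 and 0.32 between those of the neuronal stage, 0.60, -0.12 and 0.34 between control SNM and neuronal cells, -0.11, 0.18 and 0.08 between control ES and SNM cells, and 0.31, 0.06 and 0.22 between knockdown ES and SNM cells. Probe and protein sequences were not used here, and some genes of the lists were not analysed here.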

Additional observations from a re-analysis of the deposited data

Results flagged for a closer look

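The difference between knockdown and control cells itself differed between stages for several genes, by the interaction term of the limma model. From the ES to the SNM stage it increased on the log2 scale for Gfap (1.91, adjusted p = 2e-08), Aqp4 (1.39, adjusted p = 0.0323), Fabp7 (1.38, adjusted p = 5.87e-05), Vim (1.27, adjusted p = 3.03e-07), Aldoc (1.02, adjusted p = 1.4e-05), Glul (0.73, adjusted p = 0.00779) and Slc1a3 (0.62, adjusted p = 0.000205), where 11.7% of the 22125 probes tested were called higher. Aqp4 was below background on all ES arrays, Gfap on all knockdown ES arrays and 1 control ES array, and Fabp7 on all knockdown ES arrays, so these values depend on the level set for background. The Aqp4 value was not called without the detection filter (adjusted p = 0.0636 from limma) or when 1 of 8 ES or SNM arrays was left out (largest adjusted p = 0.0882). The Slc1a3 value fell below 1.5-fold without control ES array 3, knockdown ES array 1 or control SNM array 1 (0.56 to 0.58), without all arrays numbered 1 (0.55) and under 75th percentile scaling without background correction (0.38), which also took the Glul value below it (0.56).

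From the SNM to the neuronal stage the difference increased for S100b (4.90, adjusted p = 3.95e-14) and Slc1a2 (2.60, adjusted p = 1.61e-12) and decreased for Vim (-0.68, adjusted p = 0.00011), where that scaling gave -0.55, below 1.5-fold. Of the 22160 probes tested, 13.7% were called higher and 14.8% lower. S100b was the only one of the 3 whose difference changed sign, from -0.41 to 4.49. Each pair of interaction terms shares the SNM arrays.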

How the results depend on the processing

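Of the 10 genes, those called higher in knockdown cells numbered 5 at both later stages, and leaving out 1 array gave 4 to 6 called at the SNM and 5 to 6 at the neuronal stage. The same omissions gave 1 to 1 at the ES stage, 9 to 9 and 9 to 10 for the change from ES to SNM in control and knockdown cells, 2 to 3 and 3 to 4 for that from SNM to neuronal, and 5 to 7 and 3 to 4 for the interactions. Without a minimum fold, 9 genes were called at the SNM stage, and from SNM to neuronal 5 in control and 7 in knockdown cells. A 2-fold minimum gave 0 at the ES stage, and 1 and 2 from SNM to neuronal. The single ES call was also lost (0 called) with quantile normalization or 75th percentile scaling without background correction, an offset of 50, and the methods' t-test with Benjamini-Hochberg adjustment, while that test unadjusted gave 1. For the SNM stage it gave 3 after adjustment and 5 before, and for the neuronal stage 4 and 4. From SNM to neuronal, 75th percentile scaling gave 1 in control cells.

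With array number as a replicate block, Slc4a4 became called at the SNM stage (log2 0.67, adjusted p = 0.0147 from limma). In control cells, whose SNM and neuronal arrays share only a number, Aqp4 then became called for the change from SNM to neuronal (0.59, adjusted p = 0.0453 from limma). The block changed no other call. Leaving out control SNM array 3 called Slc1a3 (0.62) and Slc4a4 (1.02) at the SNM stage, and leaving out knockdown neuronal array 1 called Slc4a4 (0.86) at the neuronal stage. Between stages, single omissions called Glul in knockdown cells from ES to SNM (0.59, without knockdown SNM array 2) and from SNM to neuronal (0.66, without knockdown SNM array 3), and in control cells from SNM to neuronal Aqp4 (0.91, without control SNM array 3 or control neuronal array 1) and Slc1a2 (-0.62, without control neuronal array 2). The Fabp7 interaction between the SNM and neuronal stages was called at -0.61 without knockdown neuronal array 3. Without all arrays numbered 1, an alternative chosen after seeing the data, the calls at the 3 stages numbered 1, 5 and 5.

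Signs turned only for differences near 0 that were not called. At the ES stage 75th percentile scaling gave -0.058 for Aqp4, -0.0055 for S100b, -0.012 for Slc1a2 and -0.010 for Slc4a4, and omitting arrays numbered 1 gave -0.022 for Aqp4 and -0.013 for S100b. That scaling gave -0.081 for Slc1a3 and -0.13 for Vim from SNM to neuronal in control cells, and 0.038 for the Gfap interaction between those stages. Leaving out 1 array, ES differences ran from -0.018 to 0.050 for Aqp4, -0.027 to 0.36 for Slc4a4 and -0.12 to 0.014 for Vim. The ranges were -0.13 to 0.12 for Fabp7 at the neuronal stage, -0.030 to 0.055 for Vim in control and -0.024 to 0.58 for Slc4a4 in knockdown cells from SNM to neuronal. For the interaction between these stages they were -0.51 to 0.16 for Aqp4 and -0.47 to 0.19 for Slc4a4, which was 0.084 without arrays numbered 1. The causes were not tested. Below background a signal gives only a bound, so the ES differences of Slc1a2, Aqp4 and S100b were not measured and those of Gfap and Fabp7 only in part.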
